A study of Mus musculus with 91 samples.

Results

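Gfap, Aqp4, Slc1a3, Slc1a2 and Aldh1l1 are 5 genes commonly used to mark astrocytes, and here they were read in ribosome-bound mRNA pulled down from D1 and D2 neurons of the mouse nucleus accumbens. They were chosen by Ensembl identifier: Gfap is ENSMUSG00000020932, Aqp4 ENSMUSG00000024411, Slc1a3 ENSMUSG00000005360, Slc1a2 ENSMUSG00000005089 and Aldh1l1 ENSMUSG00000030088. All 5 were among the 14355 genes of the deposited count table. The identifiers were paired with these names in the choice of the genes, since the deposited table gives identifiers without names.

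Astrocytes are the glial cells that take up transmitter, buffer ions and water and support metabolism around synapses. Slc1a2 (GLT-1) and Slc1a3 (GLAST) are the sodium-coupled glutamate transporters that clear most glutamate from the extracellular space, and Slc1a2 is also known in some neurons. Aqp4 is the water channel of astrocyte endfeet on blood vessels. Aldh1l1 is a folate enzyme of the cytosol that is used as a broad astrocyte marker. Gfap is an intermediate filament protein that is high in reactive and white-matter astrocytes and low in many grey-matter astrocytes. In a pull-down that tags the ribosomes of neurons, transcripts of such genes can be read from tagged cells or from RNA of other cells carried along.

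The study asked how gene expression in these neurons varies over the day and between the sexes. Mice carrying Drd1-Cre (D1 neurons) or A2a-Cre (D2 neurons) had been crossed to RiboTag mice, in which Cre switches on a hemagglutinin-tagged Rpl22 ribosomal protein, and tagged ribosomes were collected with an antibody to that tag. Each library held accumbens tissue pooled from 2 mice over 10 weeks of age, kept in equal light and dark periods, and was taken at ZT 2, 6, 10, 14, 18 or 22, where ZT counts hours from lights on. There were 45 D1 libraries, 22 of them from males and 23 from females, and 46 from D2 neurons, with 23 of either sex. Titles carry a replicate letter, A to E. All groups carried Cre and the tagged ribosomal protein. The Cre driver differed between the cell types, so mouse line and cell type cannot be told apart. Homogenate and astrocyte pull-down libraries were not used here, so no level can be set against an input. The labels do not say what a letter stands for, or that libraries of a group came from separate collections, and p-values measure only the spread between these libraries. In such bulk samples, fewer cells of a type and less RNA per cell cannot be told apart.

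Total counts ranged from 6872165 to 24665262 per library. In D2 libraries they differed with the letter: 19727000 ± 3011570 (SD, n = 12) for letter A, 16241700 ± 3878530 (n = 10) for B, 11336300 ± 1749180 (n = 12) for C and 10904600 ± 1753170 (n = 12) for D. In D1 libraries the means ran from 11833200 (D, n = 11) to 15452300 (A, n = 12). Counts behind the values below ran from 47 to 228 per library for Gfap, 53 to 272 for Aldh1l1, 127 to 520 for Aqp4, 654 to 2248 for Slc1a3 and 4118 to 19904 for Slc1a2. 3 D1 libraries from males stood apart by the genes they listed at 0 counts: 789 in letter B at ZT 10, 722 in letter B at ZT 22 and 205 in letter D at ZT 18, against at most 3 in any other library. Results that rest on D1 libraries are given without them where that changes a call. Marker genes of D1 neurons, D2 neurons and other glia could not be looked up by name, so the labelled cell types were not checked against markers. Levels are in CPM, counts scaled to the size of the library, without correction for transcript length, so levels of different genes are not compared.

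The promoter windows of 4 of the genes are shown as a description of their sequence. Of these, Slc1a3 and Slc1a2 varied together from library to library, and Gfap and Aldh1l1 followed less closely, as described further on. Whether promoter sequence has a part in this was not tested. Each line gives the 250 bases before the transcription start in RefSeq (GRCm38.p6), 5′ to 3′ on the gene's strand. Capitals mark matches, on either strand, to 7 short motifs: the CCAAT box (CCAAT), the TATA box (TATAAA), the canonical E-box (CACGTG), a STAT site (TTCNNNGAA), an AP-1 site (TGANTCA), an NFI core site (TTGGC) and a CRE core site (TGACG).
Gfap: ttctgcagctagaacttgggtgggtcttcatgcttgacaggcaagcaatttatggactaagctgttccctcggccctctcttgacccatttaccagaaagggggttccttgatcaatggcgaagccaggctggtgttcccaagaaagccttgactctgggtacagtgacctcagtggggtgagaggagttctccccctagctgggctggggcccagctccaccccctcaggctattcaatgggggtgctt
Slc1a3: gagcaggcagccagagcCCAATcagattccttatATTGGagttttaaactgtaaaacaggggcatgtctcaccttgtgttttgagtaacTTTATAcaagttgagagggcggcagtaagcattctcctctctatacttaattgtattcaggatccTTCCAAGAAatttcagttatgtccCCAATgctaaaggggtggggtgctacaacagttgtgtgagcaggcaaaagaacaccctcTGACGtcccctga
Slc1a2: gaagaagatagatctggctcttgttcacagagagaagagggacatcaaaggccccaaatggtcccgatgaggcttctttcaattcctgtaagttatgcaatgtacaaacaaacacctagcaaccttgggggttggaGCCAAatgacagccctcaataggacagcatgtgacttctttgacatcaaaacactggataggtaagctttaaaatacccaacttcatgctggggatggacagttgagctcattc
Aldh1l1: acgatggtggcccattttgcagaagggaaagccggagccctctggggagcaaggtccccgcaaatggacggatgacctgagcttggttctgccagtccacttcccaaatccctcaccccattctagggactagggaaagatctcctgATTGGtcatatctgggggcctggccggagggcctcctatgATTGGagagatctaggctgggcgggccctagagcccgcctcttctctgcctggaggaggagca

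The Gfap window lies at chr11:102897201-102897450 on the minus strand, and none of the 7 motifs matched in it. The Slc1a3 window at chr15:8710808-8711057, minus strand, held 3 CCAAT boxes at 233, 216 and 72 bases before the start, a TATA box at 161, a STAT match at 96 and a CRE core site at 13. The Slc1a2 window at chr2:102706188-102706437, plus strand, held 1 NFI core site at 114 bases before the start. This window lies inside the annotated span of Slc1a2, which runs from 102658239 to 102790784, and belongs to a start within the gene. The Aldh1l1 window at chr6:90550543-90550792, plus strand, held 2 CCAAT boxes at 103 and 63 bases before the start. Its end reaches into the annotated span of Aldh1l1, which begins at 90550768, so this start also lies within the gene. No marked match overlapped another.

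None of the 7 motifs was shared by all 4 windows, and the CCAAT box was the motif found in more than 1 of them. Over the 32851 RefSeq windows of the same length, 33.8% held a CCAAT box, 12.4% a TATA box, 6.02% a canonical E-box, 7.02% a STAT match, 6.75% an AP-1 match, 41.5% an NFI core site and 17.8% a CRE core site. G and C made up 55.6% of the Gfap window, 44.8% of that of Slc1a3, 44.8% of that of Slc1a2 and 59.6% of that of Aldh1l1, against a median of 52.4% over all windows. A match describes the letters only. In the same annotation Aqp4 overlaps the long non-coding RNA A830021F12Rik, Slc1a2 overlaps LOC115489466 and Gm13872, and Aldh1l1 overlaps Gm15756, while Gfap and Slc1a3 overlap no other gene. No source used here says whether counting used strand, so reads of those pairs may be mixed.

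All 5 transcripts were present in every library of both cell types. By its name the table was filtered on log CPM, and outside the libraries that stood apart at most 3 genes were at 0 counts. Most genes of the table were thus present in every library. Both glutamate transporters, Aqp4 and Aldh1l1 were higher in D2 than in D1 pull-downs, by 1.13-fold to 1.24-fold, and Gfap was not distinguished. Adjusted p-values here are Benjamini-Hochberg values over all 14355 genes from edgeR's quasi-likelihood test, with 0.05 as the threshold, and differences are D1 minus D2 on the log2 scale. Of the 5 genes, 4 passed, all higher in D2. Over all genes 19.3% passed in either direction and 9.86% passed with the higher level in D2. The median difference of the 5 genes was -0.28, against -0.01 over all genes tested.

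Slc1a2 ranged from 482.7 to 1039 CPM in D1 libraries, with a median of 711.1, and from 579.9 to 1131 CPM in D2 libraries, with a median of 823.1. The ranges overlapped, with 45 of 46 D2 libraries inside the D1 range, and 36 of 46 D2 libraries lay above the D1 median. The means were 724.9 ± 139.2 CPM (SD, n = 45) in D1 and 816.9 ± 113.8 CPM (n = 46) in D2, a difference of -0.17 ± 0.05 (SE, adjusted p = 0.00637).

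Slc1a3, the other glutamate transporter, differed by about as much as Aqp4, more than Slc1a2 in value. It ranged from 51.9 to 119 CPM in D1 libraries (median 79.1) and from 68.0 to 134.6 CPM in D2 libraries (median 101.3). 40 of 46 D2 libraries lay above the D1 median and 42 lay inside the D1 range. The mean of the D2 libraries was the higher one in all 12 combinations of sex and time. Means were 80.8 ± 14.9 CPM (n = 45) and 99.8 ± 16.1 CPM (n = 46), a difference of -0.31 ± 0.05 (SE, adjusted p = 1.25e-06).

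Aqp4, the water channel, ranged from 8.10 to 30.9 CPM in D1 libraries (median 17.0) and from 15.1 to 31.3 CPM in D2 libraries (median 21.6). The lowest D2 library lay below the D1 median, and the highest libraries of both cell types were alike. Means were 17.7 ± 4.46 CPM and 21.8 ± 3.97 CPM, a difference of -0.30 ± 0.06 (SE, adjusted p = 9.15e-05). D2 was higher in 11 of 12 combinations of sex and time.

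Aldh1l1, the folate enzyme, ranged from 6.03 to 20.7 CPM in D1 libraries (median 10.4) and from 6.30 to 20.9 CPM in D2 libraries (median 13.8). The ranges were nearly the same, and 34 of 46 D2 libraries lay above the D1 median. Means were 10.8 ± 2.90 CPM and 13.1 ± 3.14 CPM, a difference of -0.28 ± 0.08 (SE, adjusted p = 0.00403). Gfap ranged from 3.15 to 12.3 CPM in D1 (median 6.98) and from 4.02 to 16.3 CPM in D2 (median 7.30). Its means were 7.13 ± 2.09 CPM and 7.57 ± 2.35 CPM, and the difference of -0.09 ± 0.09 (95% interval -0.27 to 0.10, adjusted p = 0.518) did not pass. 27 of 46 D2 libraries lay above the D1 median of Gfap. Added up, the 5 genes took 571.1 to 1205 CPM in D1 libraries and 678.2 to 1302 CPM in D2 libraries, with most of these counts from Slc1a2. This is a share of counts, not corrected for transcript length, and does not rank the genes by level.

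**Figure D1:**
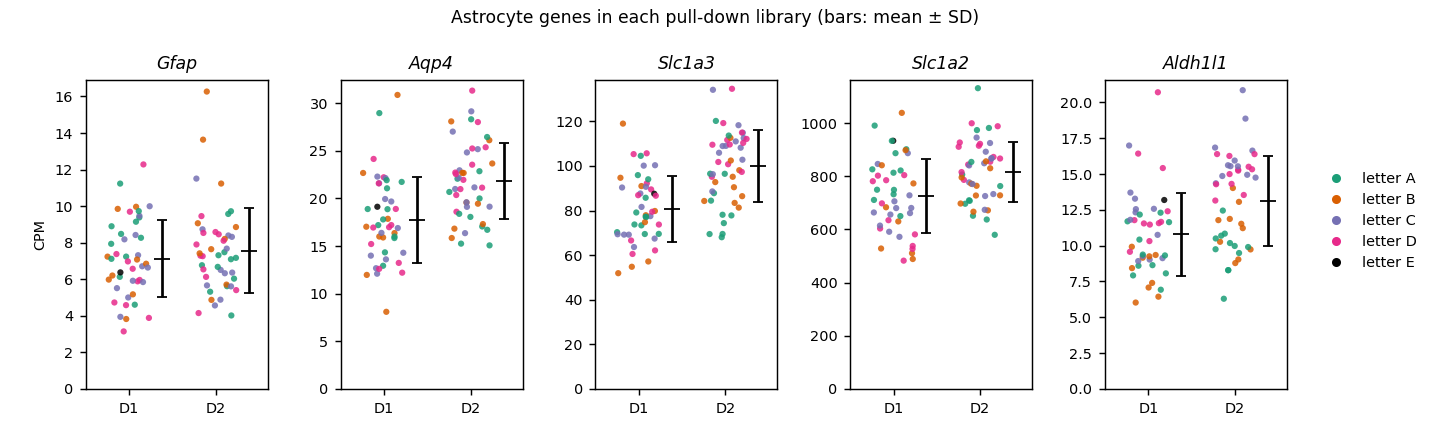
CPM of each gene in each of the 45 D1 and 46 D2 libraries; 1 point is 1 library, colours are replicate letters, and bars give the mean ± SD. The clouds of D1 and D2 overlap for every gene, and the D2 mean lies above the D1 mean, from 7.57 against 7.13 CPM for Gfap to 816.9 against 724.9 CPM for Slc1a2.

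The difference between the cell types was not of one size in the 4 replicate letters that both hold. Within letter A, 0 of 5 genes passed the edgeR test (0 at an unadjusted p under 0.05), where 48.3% of all genes did. The values there were 0.25 ± 0.12 for Gfap, -0.09 ± 0.10 for Aqp4, -0.10 ± 0.09 for Slc1a3, 0.05 ± 0.09 for Slc1a2 and -0.01 ± 0.10 for Aldh1l1 (log2, SE, 24 libraries). Within letter B, 1 of 5 passed beside 48.3% of all genes. This was Aldh1l1 at -0.57 ± 0.12 (adjusted p = 8.52e-04), and Slc1a3 stood at -0.25 ± 0.10 (adjusted p = 0.0568). Letters C and D showed larger differences for both transporters and Aqp4 than letters A and B.

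Within letter C, 4 of 5 genes passed and within letter D also 4 of 5, where 55.9% and 54.3% of all genes passed. In letter C, Slc1a3 differed by -0.44 ± 0.05, Aqp4 by -0.39 ± 0.09, Slc1a2 by -0.25 ± 0.05 and Aldh1l1 by -0.48 ± 0.07. In letter D, Slc1a2 differed by -0.44 ± 0.06, Slc1a3 by -0.42 ± 0.07, Aqp4 by -0.42 ± 0.08 and Aldh1l1 by -0.25 ± 0.09. Gfap passed in neither, at -0.05 ± 0.14 and -0.20 ± 0.18. Without letter C the pooled call was lost for Slc1a2 (-0.14, adjusted p = 0.165) and Aldh1l1 (-0.18, adjusted p = 0.213), and without letter D for Slc1a2 (-0.08, adjusted p = 0.577). The calls of Slc1a3 and Aqp4 held when any of letters A to D was left out.

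In libraries from males alone the same 4 genes passed, beside 10.4% of all genes, with differences from -0.23 ± 0.07 for Slc1a2 to -0.36 ± 0.11 for Aldh1l1. In libraries from females alone 1 gene passed, beside 11.7% of all genes. This was Slc1a3 at -0.29 ± 0.08 (adjusted p = 0.00697), and Aqp4 stood at -0.25 ± 0.09 (adjusted p = 0.0516). The difference between the sexes in this contrast, tested as an interaction, passed for 0 of 5 genes and for 0% of all genes with edgeR (0 of the 5 and 908 of all at an unadjusted p under 0.05). limma voom also called none of the 5, and DESeq2 called 16 of all genes and gave an adjusted p for 1 of the 5, Slc1a2 (0.867). The interaction values ran from -0.17 ± 0.15 for Aldh1l1 to -0.02 ± 0.10 for Slc1a3.

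**Figure D2:**
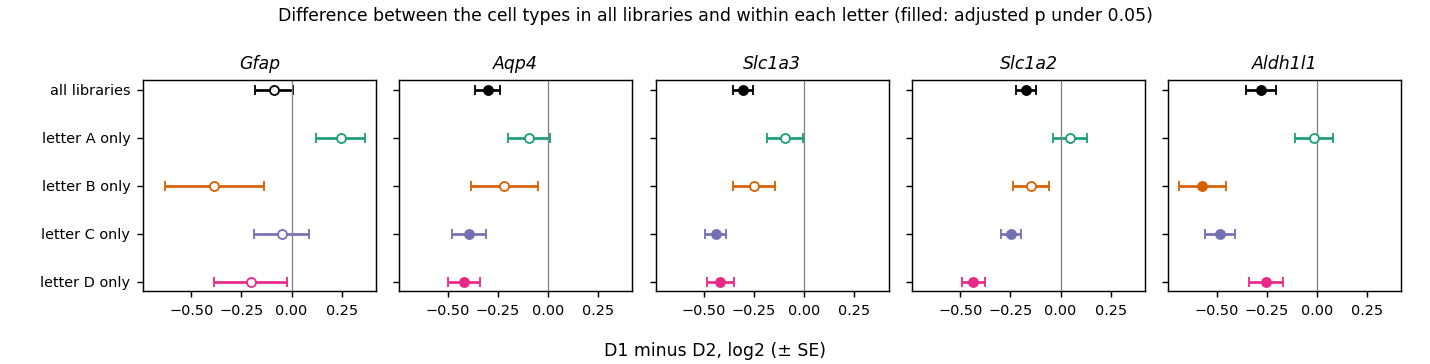
Difference D1 minus D2 on the log2 scale with its SE, for all 91 libraries and within each of letters A to D; filled points have an adjusted p under 0.05. Points of Aqp4 and Slc1a3 lie left of 0 in all 4 letters, those of letter A lie nearest to 0 for every gene but Gfap, and Gfap has no filled point.

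Of the 5 genes, Aldh1l1 differed most between replicate letters. In D2 libraries letter differences passed for 3 of 5 genes, beside 85.3% of all genes, and in D1 libraries for 2 of 5, beside 55.7%. Most genes of the table thus differed between letters as well. In D2 the median spread between the highest and the lowest letter (log2) was 0.36 for the 5 genes, against 0.52 over all genes. In D1 these medians were 0.32 and 0.35. Aldh1l1 passed in both cell types, with a spread between the highest and the lowest letter of 0.74 in D2 (log2, adjusted p = 6.15e-12) and 0.66 in D1 (adjusted p = 1.63e-04).

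In D2 libraries Aldh1l1 ranged from 6.30 to 12.4 CPM in letter A (median 9.94), from 8.78 to 14.0 in B (median 11.4), from 14.4 to 20.9 in C (median 15.6) and from 13.1 to 16.4 in D (median 15.3). Letters C and D did not overlap with letter A, and letter C did not overlap with letter B. The share of all genes with such gaps was not computed, so this cannot be called particular to Aldh1l1. Of all genes 85.3% differed between letters in D2. The means were 9.72 ± 1.55 (n = 12), 11.1 ± 1.69 (n = 10), 16.2 ± 1.89 (n = 12) and 15.1 ± 1.06 CPM (n = 12). In D1 libraries the means of Aldh1l1 were 9.76 ± 1.84 (A, n = 12), 8.12 ± 1.41 (B, n = 9), 11.7 ± 2.42 (C, n = 12) and 13.0 ± 3.26 CPM (D, n = 11). There the highest library of letter B, at 9.92 CPM, lay within the ranges of the other letters. In both cell types letters C and D were the higher ones.

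The glutamate transporters differed between letters in another way. Slc1a3 passed in D2 (spread 0.36, adjusted p = 7.62e-06), with means of 86.4 ± 17.3, 92.7 ± 9.75, 109.2 ± 11.3 and 109.7 ± 10.7 CPM in letters A to D. In D1 its letters stood at 80.8 ± 11.6, 77.9 ± 21.8, 80.6 ± 13.1 and 82.6 ± 15.7 CPM, with a spread of 0.08 (adjusted p = 0.927). Slc1a2 passed in both. In D2 it was lowest in letter B, at 751.1 ± 64.3 CPM, and highest in letter D, at 892.0 ± 64.3 CPM (spread 0.27, adjusted p = 0.00639; 0.149 without letter D). In D1 it was highest in letter A, at 813.9 ± 100.5 CPM, and lowest in letter D, at 658.1 ± 121.3 CPM (spread 0.32, adjusted p = 0.0448).

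The order of the letters for Slc1a2 was thus not the same in the cell types. The D1 call for Slc1a2 was lost without letter A (adjusted p = 0.547), without C (0.0886), without D (0.0683), with RLE scaling (0.0578) and with totals alone as the scaling (0.113). Aqp4 did not pass in D1 (spread 0.14, adjusted p = 0.787) or in D2 (0.24, adjusted p = 0.134), and with totals alone as the scaling it passed in D2 (0.36, adjusted p = 0.00526). Gfap did not pass in D1 (0.34, adjusted p = 0.220) or in D2 (0.40, adjusted p = 0.0626). Other settings called it: in D1 limma voom (0.58, adjusted p = 0.00527), depth as a covariate (0.63, adjusted p = 0.0197) and the fit without the 3 libraries that stood apart (0.45, adjusted p = 0.0330), and in D2 limma voom (0.41, adjusted p = 0.0411) and the fit without letter D (0.42, adjusted p = 0.0315).

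Whether the letters differed in the same way in both cell types was tested as an interaction, which passed for 62.4% of all genes and for 3 of the 5. These were Slc1a2 (largest gap between letters in the D1 minus D2 difference 0.50, adjusted p = 0.00361), Aldh1l1 (0.48, adjusted p = 0.00572) and Slc1a3 (0.36, adjusted p = 0.0449). Gfap (0.69, adjusted p = 0.0603) and Aqp4 (0.32, adjusted p = 0.318) did not pass. Gfap passed by DESeq2 (0.70, adjusted p = 0.0424), by limma voom (0.99, adjusted p = 0.00132), with totals alone (0.80, adjusted p = 0.0188), without letter C (0.66, adjusted p = 0.0456) and without letter D (0.76, adjusted p = 0.0190). Without letter A the interaction passed for 0 of 5 genes (1 at an unadjusted p under 0.05), where 7.68% of all genes passed. With the log total count as a covariate it also passed for 0 (3 at an unadjusted p under 0.05), where 43.8% of all genes passed. Slc1a3 also missed the threshold without letter C (adjusted p = 0.128) or D (0.0639), Slc1a2 without D (0.141) and Aldh1l1 without C (0.0697). With that covariate the letter difference in D2 passed for 1 of 5, Aldh1l1 (0.74, adjusted p = 6.39e-05), beside 71.1% of all genes, and Slc1a3 (adjusted p = 0.512) and Slc1a2 (0.138) no longer passed. In D1 it went the other way, with 3 of 5 passing beside 54.4% of all genes: Slc1a2 (0.52, adjusted p = 5.34e-04), Aldh1l1 (0.54, adjusted p = 0.00120) and Gfap. The part of depth in the letter differences was otherwise not tested.

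**Figure D3:**
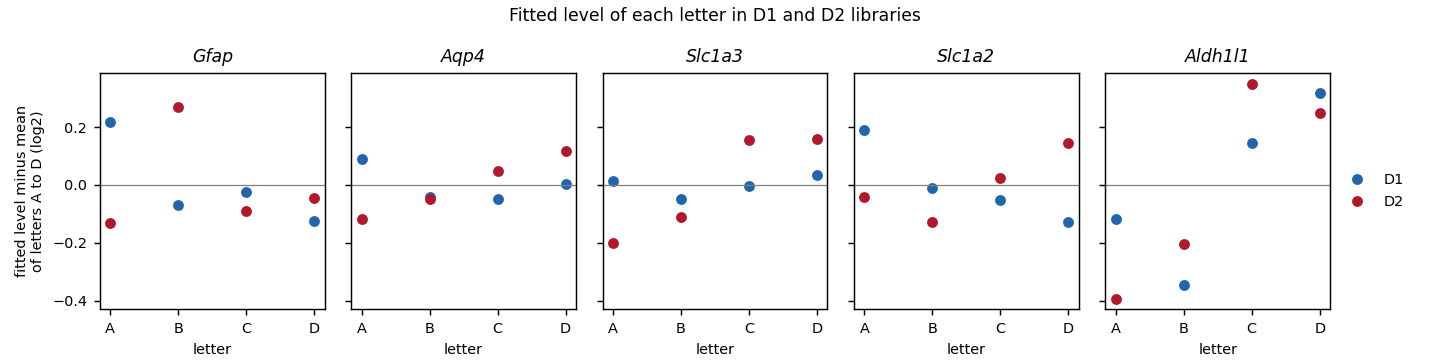
Fitted level of each gene in letters A to D minus the mean over the letters (log2), in D1 and in D2 libraries, from the fit with a mean for each group of sex and time. Aldh1l1 is lower in A and B than in C and D in both cell types, down to -0.39 in D2, and the points of Slc1a2 stand highest in A in D1 (0.19) and highest in D in D2 (0.15).

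Time of day left no called rhythm in any of the 5 genes. In D1 libraries 0 of 5 passed, where 0.495% of all genes did, with 3 of the 5 at an unadjusted p under 0.05 by edgeR and by DESeq2 and 0 by limma voom. Of all genes 1803, 2136 and 3212 had such a p by the same tools. The amplitude, the height from mean to peak of a fitted wave of 24 h, was 0.15 ± 0.05 for Slc1a3 (log2, SE, adjusted p = 0.278), 0.18 ± 0.07 for Aqp4 (adjusted p = 0.363) and 0.20 ± 0.07 for Aldh1l1 (adjusted p = 0.365). Their fitted peaks lay at ZT 13.2, 14.4 and 15.3. Slc1a2 had an amplitude of 0.10 ± 0.06 and Gfap of 0.09 ± 0.09. The median amplitude of the 5 genes was 0.15, against 0.09 over all genes.

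The levels by time show the size of these waves. In D1 libraries Aqp4 stood at 16.0 ± 2.69 CPM at ZT 2 (n = 8), 15.6 ± 4.66 at ZT 6 (n = 8), 19.6 ± 5.01 at ZT 10 (n = 8), 20.1 ± 5.70 at ZT 14 (n = 7), 18.3 ± 3.71 at ZT 18 (n = 6) and 17.4 ± 3.84 at ZT 22 (n = 8). Slc1a3 stood at 72.8 ± 7.72 CPM at ZT 2, 76.6 ± 15.5 at ZT 6, 90.3 ± 17.1 at ZT 10, 85.8 ± 16.2 at ZT 14, 84.7 ± 10.6 at ZT 18 and 75.8 ± 15.4 at ZT 22. Differences between times were of the size of the SD within a time. Aldh1l1 ran from 9.43 ± 1.87 CPM at ZT 2 to 12.5 ± 3.22 at ZT 18, and Slc1a2 from 666.4 ± 132.9 CPM at ZT 2 to 797.4 ± 121.5 at ZT 10. Gfap did not follow this order, with its lowest mean at ZT 14 (5.76 ± 2.02 CPM) and its highest at ZT 10 (8.07 ± 1.46 CPM).

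In D2 libraries the amplitudes were smaller, from 0.03 ± 0.08 for Aldh1l1 to 0.08 ± 0.06 for Aqp4. None of the 5 passed, where 2.94% of all genes did, and none had an unadjusted p under 0.05 by edgeR, DESeq2 or limma voom. With the letter as a replicate block 22.3% of all genes passed and still none of the 5. The D2 means of Slc1a3 lay between 95.4 ± 13.6 CPM at ZT 14 and 104.2 ± 21.9 CPM at ZT 6, and those of Aqp4 between 20.3 ± 2.69 CPM at ZT 14 and 23.1 ± 3.93 CPM at ZT 2. Those of Slc1a2 lay between 774.8 ± 94.2 CPM at ZT 10 and 840.9 ± 103.4 CPM at ZT 22. The D2 mean was higher than the D1 mean at all 6 times for Aqp4, Slc1a3 and Aldh1l1, at 5 for Slc1a2 and at 4 for Gfap.

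The difference in rhythm between the cell types passed for 0 of 5 genes, where 0.0139% of all genes passed. At an unadjusted p under 0.05 it held 2 of the 5 by edgeR, Aqp4 (0.27 ± 0.09, adjusted p = 0.422) and Slc1a3 (0.18 ± 0.07, adjusted p = 0.589), and 1 of the 5 by DESeq2 and by limma voom, with none called. Of all genes 1215, 1386 and 5899 had such a p by these tools. The gap between the D2 and D1 means of Aqp4 was widest at ZT 2 (23.1 against 16.0 CPM) and closed at ZT 14 (20.3 against 20.1 CPM). Whether males and females differed in rhythm passed for 0 of 5 genes and 0% of all genes in D1, and for 0 of 5 and 0% in D2, by edgeR. None of the 5 had an unadjusted p under 0.05 there, while 226 genes in D1 and 389 in D2 did. limma voom called Aldh1l1 in D1 (0.45, adjusted p = 0.0286) among 2885 genes, and DESeq2 called none of the 5.

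**Figure D4:**
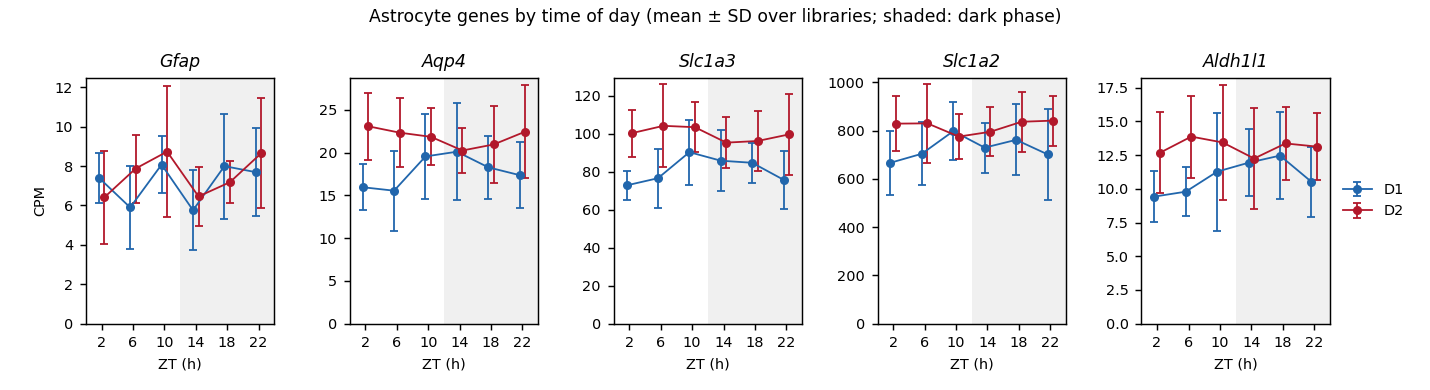
Mean CPM ± SD over libraries at each ZT in hours, for D1 and D2, with the dark phase shaded. The D1 means of Aqp4 and Slc1a3 go from 16.0 and 72.8 CPM at ZT 2 to 19.6 and 90.3 CPM at ZT 10 within wide bars, and the D2 means stay above them at every time.

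Levels in males and females were not distinguished. In D1 libraries 0 of 5 genes passed, where 0.0418% of all genes did, and in D2 libraries 0 of 5, where 0.216% did. None of the 5 had an unadjusted p under 0.05 by edgeR or DESeq2 in either, and limma voom had 2 in D1 and called none. DESeq2 gave no adjusted p for Gfap, Aqp4 and Aldh1l1 in D1. With the letter as a replicate block 9.45% of all genes passed in D2 and none of the 5. The difference male minus female in D1 was below 0 for all 5 genes, from -0.08 ± 0.13 for Gfap to -0.17 ± 0.10 for Aqp4 (adjusted p = 0.377) and -0.17 ± 0.10 for Aldh1l1 (adjusted p = 0.427). The median over the 5 genes was -0.10, against -0.0039 over all genes.

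Aqp4 stood at 18.8 ± 4.16 CPM in D1 females (n = 23) and 16.7 ± 4.62 in D1 males (n = 22), and Aldh1l1 at 11.4 ± 3.12 and 10.1 ± 2.55 CPM. In D2 the differences ran from -0.09 ± 0.08 for Aqp4 to 0.02 ± 0.13 for Gfap. Aldh1l1 there was at 13.1 ± 3.22 CPM in females and 13.1 ± 3.13 in males (n = 23 each).

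Slc1a2, Slc1a3 and Aqp4 varied together from library to library after the mean of each group of cell type, sex and time was taken out, and Aldh1l1 and Gfap followed them less closely. 20 relations between genes were computed, 10 in each cell type, and 14 had an adjusted permutation p under 0.05. The share over all pairs of genes was not computed, so this count cannot be called particular to these genes. For Aqp4 and Slc1a3, Pearson's r was 0.81 in D1 (Spearman's rho 0.80, n = 45) and 0.76 in D2 (rho 0.73, n = 46). Both raw permutation p-values were 1e-05, the smallest that 100000 permutations can give, and the adjusted value for r was 2.86e-05. Libraries were permuted within their group without regard to letter. Same-letter libraries of D2 deviated together, so permutation p-values in D2 treat linked libraries as separate and may be too small. In D1 the link was weaker, with 70.0% of same-letter pairs correlated over 0.1, and p-values there may be too small as well. The values of r with the letter taken out or within letters do not have this limit. Without the 2 libraries whose Aqp4 deviation lay farthest from the median, r was 0.78 and 0.72. Within single letters r ran from 0.81 to 0.90 in D1 and from 0.61 to 0.93 in D2. Values within single letters, here and below, are of log2 CPM with the group means left in.

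Aqp4 and Slc1a2 were related as closely, with r of 0.75 in D1 (rho 0.76) and 0.77 in D2 (rho 0.76), and 0.78 to 0.87 and 0.49 to 0.86 within letters (raw permutation p = 1e-05 and adjusted p = 2.86e-05 for r in both cell types). Slc1a3 and Slc1a2 had r of 0.70 in D1 (rho 0.68) and 0.76 in D2 (rho 0.71), also with a raw permutation p = 1e-05 for r. With the letter taken out these were 0.81 and 0.77, though the lowest letter of D2 gave 0.01. Without the 2 farthest libraries the 4 values, in the same order, were 0.74, 0.76, 0.63 and 0.72. These libraries were chosen by Aqp4 in its pair and by Slc1a3 in the other. Of the 14354 other genes, Slc1a3 was the one most correlated with Aqp4 in D1 and the 3rd in D2. Slc1a2 ranked 11th and 2nd by the same measure. By correlation with Slc1a3 the ranks were lower in D2, with Aqp4 8th in D1 and 845th in D2, and Slc1a2 109th and 761st. By correlation with Slc1a2, Aqp4 ranked 16th in D1 and 13th in D2, and Slc1a3 46th and 18th.

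Aldh1l1 was tied to Slc1a3 in D2, with r of 0.75 (rho 0.70, permutation p = 1e-05, adjusted p = 2.86e-05), but with the letter taken out r was 0.38. Within letters it ran from -0.01 to 0.49, and Slc1a3 ranked 3978th among the 14354 other genes by its correlation with Aldh1l1. In D1 the same pair had r of 0.45 (rho 0.42, permutation p = 0.00618, adjusted p = 0.0112), and 0.55 with the letter taken out. Without the 2 libraries farthest in Slc1a3 it was 0.39. Aldh1l1 and Slc1a2 had r of 0.03 in D1 (permutation p = 0.834) and 0.49 in D2 (permutation p = 0.00221, adjusted p = 0.00553), and with the letter taken out 0.39 in both. In D2 Slc1a2 ranked 5679th among the 14354 other genes by its correlation with Aldh1l1. Gfap was related to Aqp4, with r of 0.53 in D1 (rho 0.54, permutation p = 0.00329, adjusted p = 0.00731) and 0.40 in D2 (rho 0.44, permutation p = 0.00878, adjusted p = 0.0146). In D1 Gfap also passed with Slc1a3 (r 0.48, permutation p = 0.00596, adjusted p = 0.0112) and Slc1a2 (r 0.40, permutation p = 0.0268, adjusted p = 0.0383). With the letter taken out these were 0.56 and 0.32. Its r with Aldh1l1 in D1 was 0.12 and did not pass. In D2 the r of Gfap was 0.11 with Slc1a3, 0.08 with Slc1a2 and -0.04 with Aldh1l1, none of which passed. For the pairs named here that passed, the permutation p of rho was at most 0.0156.

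**Figure D5:**
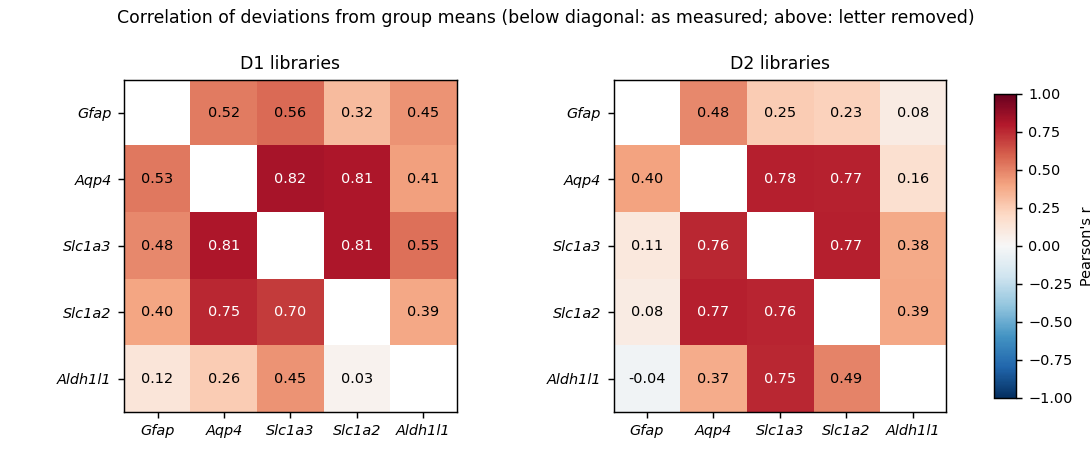
Pearson's r between the deviations of each pair of genes from their group means, in 45 D1 libraries and 46 D2 libraries; cells below the diagonal are as measured and those above have the letter taken out. Aqp4, Slc1a3 and Slc1a2 form a block of 0.70 to 0.82, and the D2 value of Slc1a3 with Aldh1l1 goes from 0.75 below the diagonal to 0.38 above it.

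The share of these genes in a library also went with its total count. Of 10 relations between a gene and the log total, 7 had an adjusted permutation p under 0.05, all with a lower share in deeper libraries. The relation was not computed over all genes, so it cannot be called particular to these. As for the pairs of genes, the permutations took no account of the letter. For Aldh1l1 r was -0.76 in D2 (rho -0.72, permutation p = 1e-05, adjusted p = 5e-05) and -0.53 in D1 (rho -0.54, permutation p = 0.00232, adjusted p = 0.0058). For Slc1a3 it was -0.73 in D2 (rho -0.70, permutation p = 1e-05, adjusted p = 5e-05) and -0.57 in D1 (rho -0.59, permutation p = 5.4e-04, adjusted p = 0.0018). The total differed between the letters of D2, so the relation was also read with the letter taken out. In D2 r was then -0.01 for Aldh1l1 and -0.32 for Slc1a3, and in D1 it was -0.43 and -0.65. Without the 2 libraries farthest in log total the 4 values, in the order first given, were -0.77, -0.61, -0.74 and -0.55. The permutation p of rho was at most 0.00148 in these 4. Within single letters of D2 the value of Aldh1l1 ran from -0.47 to 0.14. With the log total as a covariate the same 4 genes were higher in D2 as in the test without it.

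The libraries that stood apart did not hold these genes in 1 direction. The D1 male library of letter B at ZT 10 had the highest D1 level of Aqp4 (30.9 CPM), Slc1a3 (119 CPM) and Slc1a2 (1039 CPM), but ranked 44th of 45 for Aldh1l1, at 6.44 CPM. The D1 male library of letter B at ZT 22 was near the low end for Aqp4 (12.0 CPM), Slc1a3 (57.2 CPM) and Slc1a2 (488.9 CPM) and had the lowest Aldh1l1, at 6.03 CPM. The library of letter D at ZT 18 had the highest D1 level of Gfap, at 12.3 CPM. Without these 3 libraries the cell type difference passed for the same 4 genes. The interaction of letter and cell type then passed for Gfap (0.83, adjusted p = 0.0123) and no longer for Slc1a3 (0.33, adjusted p = 0.0611).

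The genes whose pattern over the 91 libraries was most like the mean standardised log2 CPM of the 5 genes were ENSMUSG00000033149 and ENSMUSG00000061436, both with Spearman's rho of 0.82. Their names could not be looked up.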

How the data were processed

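RNA bound to tagged ribosomes was sequenced in 91 libraries. The authors deposited raw counts per gene, whole numbers that are not normalised. Per the submitters' processing notes, the tools were FastQC 0.11.7, HTSeq 0.10.0 and HISAT2, without a version for the last; GRCm38 and GRCh38 are named without a role. By its name, the deposited table was filtered on log CPM, with a cut-off not given in the sources used here.

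Counts were fitted in R 4.3.3 with edgeR 4.0.16: TMM scaling, the quasi-likelihood F test and p-values adjusted by Benjamini-Hochberg over the whole table of 14355 genes, called under 0.05. For each cell type and sex the model held a mean and a 24 h wave (cosine and sine). Letters A to D were tested over a mean for each group, leaving out the single E library. CPM used TMM-adjusted totals. limma 3.58.1 voom (quality weights), DESeq2 1.42.0, RLE scaling, totals alone, filterByExpr, a mean of at least 1 CPM, letter blocks, letters left out or alone, depth as a covariate, time as a factor, libraries left out and, for rhythm, least squares on log2(CPM + 1) were alternatives. Libraries of 1 sex alone were added after the data were seen. The fit was tested on simulated counts.

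Same-letter libraries of D2 deviated from their group means together in all of 243 pairs (100% of correlations over 0.1, median 0.74, lowest 0.22), so letters were taken to pair D2 libraries. In D1 this held for 70.0% of 223 pairs (lowest -0.63), so they were not taken to pair D1. The main tests of cell type, sex and rhythm held no letter term in either cell type. Pairing by letter entered only in the alternatives with a letter block. No 2 libraries agreed within sampling noise (lowest mean chi-square per gene 3.08 over 4095 pairs, where 1 is sampling noise).

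The 5 genes, the motifs and the lists were chosen with earlier results of these data known. The rule was to name the 5 genes in every comparison and the 2 genes most like them. The reference table pairs no Ensembl identifier with a symbol, so lists of other astrocyte genes and of other cell types' markers were not scored. Promoters and positions were matched by symbol for all 5 genes in RefSeq; the sequence of Aqp4 is not reported here.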

Additional observations from a re-analysis of the deposited data

Results flagged for a closer look

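In 6 of 95 combinations of a gene and a group of 4 libraries, 1 library lay far from the other 3; chance flags about 1 in 20 such combinations, or 5%. Gfap was 5.32 CPM in the D2 male library of letter A at ZT 10, against 8.53 to 9.06 CPM in the other 3. Aqp4 was 30.9 CPM in the D1 male library of letter B at ZT 10, against 16.0 to 16.9 CPM, and this is one of the libraries that stood apart by genes at 0 counts. Aqp4 was 15.3 CPM in the D2 female library of letter A at ZT 14, against 22.2 to 23.5 CPM. Slc1a3 was 84.4 CPM in the D2 female library of letter A at ZT 10, against 112.6 to 114.9 CPM. Slc1a2 was 927 CPM in the D2 female library of letter D at ZT 10, against 696.7 to 727.8 CPM, and 982 CPM in the D2 male library of letter A at ZT 2, against 770.8 to 786.6 CPM.

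The difference between letters was not the same in D1 and D2, by a test of the interaction, for Slc1a3 (largest gap between letters 0.363 on the log2 scale), Slc1a2 (0.501) and Aldh1l1 (0.476). Of all genes 62.4% passed the same test.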

How the results depend on the processing

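The cell type difference passed for 4 of the 5 genes with DESeq2, limma voom, RLE scaling, totals alone, both filters, depth as a covariate, time as a factor and without the 3 libraries that stood apart. With the letter as a replicate block it also passed for 4 (Aldh1l1 -0.28, adjusted p = 1.16e-05), and a block within each cell type gave 4. The block changed no call of the 5 genes in the sex and rhythm tests, where it was also run. Within letter A the count was 0, within letter B 1, and in libraries from females alone 1; leaving out a letter gave 2 to 4. Within letter A, Gfap (0.25) and Slc1a2 (0.046) turned sign, and with a letter left out Gfap ran from -0.21 to 0.029. Letter differences in D1 passed for 1 gene, Aldh1l1, with RLE scaling and 1 with totals alone, and for 1 to 2 with a letter left out. In D2 they passed for 1 with depth as a covariate. The interaction of letter and cell type passed for 0 with depth as a covariate and for 0 to 3 with a letter left out. limma voom called 1 gene, Aldh1l1, for a sex difference in the D1 rhythm. Other settings added calls of letter differences for Gfap and, with totals alone in D2, for Aqp4. The cause of these changes was not tested.

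Sex differences, none of which passed, turned sign in single letters, in D2 with other settings, and with a letter left out. In D1, letter B gave 0.39 for Gfap, 0.20 for Aqp4, 0.22 for Slc1a3 and 0.18 for Slc1a2, and letter D gave 0.12 for Gfap; with a letter left out Gfap ran from -0.15 to 0.072 and Slc1a3 from -0.16 to 0.011. In D2, letter A gave -0.12 for Gfap, 0.10 for Aqp4, 0.13 for Slc1a3 and 0.13 for Aldh1l1, letter B -0.14 for Gfap, letter C -0.057 for Slc1a2 and 0.049 for Aldh1l1, and letter D -0.11 for Slc1a2 and 0.011 for Aldh1l1. There limma voom gave -0.013 for Slc1a2, totals alone 0.0045 and time as a factor 0.0060 for Aldh1l1, and depth as a covariate 0.0055 for Slc1a3 and 0.084 for Aldh1l1. With a letter left out, Gfap ran from -0.042 to 0.064, Slc1a2 from -0.056 to 0.053 and Aldh1l1 from -0.037 to 0.053. For the sex difference between the cell types, letter A gave 0.011 for Gfap, letter B 0.51 for Gfap, 0.26 for Aqp4, 0.30 for Slc1a3 and 0.15 for Slc1a2, and letter D 0.039 for Gfap and 0.084 for Slc1a3; with a letter left out Gfap ran from -0.22 to 0.11 and Slc1a3 from -0.12 to 0.061.

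Over all genes the cell type count moved from 2770 to 8248 with limma voom, 5471 with the block, 6572 with the block within cell type, 6912 without letter A, 1767 without letter D and 4400 with depth as a covariate. Counts of 47 to 272 reads limit the precision of Gfap and Aldh1l1. Markers of other cells could not be scored, and no input library was used.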
